A study of Mus musculus with 16 samples.

Results

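The genes described here are 34 genes of the G2 phase, of mitosis and of cytokinesis, listed by name for their known roles. All 34 were found among the 22675 genes that the count tables share. They were measured by RNA sequencing in sorted splenic B cells from C57BL/6 mice, collected on day 7 of a response to NP-OVA given with LPS and Alum, in 16 Smart-seq2 libraries of about 1000 pooled cells each. The cells expressed B220 and CD38, bound the hapten NIP and lacked surface CD138, GL7, FAS and IgD, and they carried or lacked tdTomato fluorescence. KOTP and KOTN were the tdTomato-positive and tdTomato-negative cells with the genotype Zfp318 ZSDAT/ZSDAT, homozygous for the modified Zfp318 allele. HetTP and HetTN were the tdTomato-positive and tdTomato-negative cells with the genotype Zfp318 ZSDAT/+. Mice of every group, controls included, also carried AID-Cre, which places Cre recombinase under the control of an activation-induced B cell gene, and B1-8hi GFP, a rearranged heavy chain that favours binding of NP and NIP. Each group had 4 libraries. The labels do not state the age of the mice, whether libraries came from separate animals, or which part of Zfp318 the allele alters, so p-values measure only the spread between these libraries.

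A cell enters mitosis when cyclin A and cyclin B activate the kinase CDK1, and the Aurora and Polo-like kinases then build the spindle. The spindle checkpoint holds the cell until every kinetochore is attached, after which CDC20 lets the anaphase-promoting complex (APC/C) destroy cyclin B, and the midzone and contractile ring divide the cell. The messenger RNAs of these genes are made mainly in G2 and M, so their level in a population follows the share of dividing cells. Antigen-activated and germinal center B cells divide rapidly, whereas most memory B cells are resting.

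Genes of this kind are known to share promoter elements: the cell cycle genes homology region (CHR), which the MuvB complex contacts, and CCAAT boxes, which bind NF-Y. RefSeq promoter windows, running from 250 bases before to 50 bases after the gene start on GRCm38.p6, were matched for 31 of the 34 members, leaving Ccna2, Tpx2 and Aurkb. For 23 members, sequence just after the window's gene start was found near the beginning of a GENCODE transcript of that gene. In the other windows the gene start is less certain, and so is the presence or absence of a word. A CHR word, TTTGAA or TTCGAA on either strand, was found in the windows of 24 of the 31 members (77.4%), against 16.6% of the 8001 tested genes with a window and 21.7% of all 27025 genes with a window. A gene with several windows was counted if any of them matched. A CCAAT word on either strand was found in 25 members (80.6%), against 43.4% of the tested genes with a window. At least 2 CCAAT words stood in 19 members (61.3%), against 17.0% of these tested genes, and both kinds of word in 22 members (71.0%), against 7.0%. In 7 members (22.6%), against 1.9%, a pair of CCAAT words on the same strand lay 31 to 33 bases apart. These are matches of letters, not measured binding, and members were chosen for roles that are known to go with these elements.

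The upstream sequences of 5 members are shown as examples of these words and were not chosen by a ranking. They are written 5′ to 3′ along the gene, all on the minus strand of GRCm38, from 200 bases before the gene start to the base before it, or to the last base before a GENCODE exon where one begins earlier, and capitals mark the CHR and CCAAT words, including ATTGG and TTCAAA, which are the same words on the other strand.
Cdc20, chr4:118437353-118437543: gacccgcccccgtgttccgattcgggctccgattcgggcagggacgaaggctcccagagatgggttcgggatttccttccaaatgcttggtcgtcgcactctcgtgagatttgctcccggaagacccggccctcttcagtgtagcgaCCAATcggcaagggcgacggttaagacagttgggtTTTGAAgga
Mki67, chr7:135716380-135716579: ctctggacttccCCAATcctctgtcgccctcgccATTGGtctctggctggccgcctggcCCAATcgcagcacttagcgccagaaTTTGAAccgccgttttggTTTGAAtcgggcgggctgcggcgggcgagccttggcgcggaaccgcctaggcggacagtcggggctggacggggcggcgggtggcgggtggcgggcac
Top2a, chr11:99024190-99024389: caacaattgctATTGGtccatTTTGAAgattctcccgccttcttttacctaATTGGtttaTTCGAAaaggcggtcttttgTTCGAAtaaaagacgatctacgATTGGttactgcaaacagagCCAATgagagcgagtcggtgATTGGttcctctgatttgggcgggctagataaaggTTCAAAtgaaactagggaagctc
Cdk1, chr10:69352939-69353112: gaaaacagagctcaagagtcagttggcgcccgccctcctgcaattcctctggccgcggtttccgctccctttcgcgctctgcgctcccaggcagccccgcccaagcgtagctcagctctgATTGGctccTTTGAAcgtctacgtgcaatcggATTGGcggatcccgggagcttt
Ccnb2, chr9:70421555-70421754: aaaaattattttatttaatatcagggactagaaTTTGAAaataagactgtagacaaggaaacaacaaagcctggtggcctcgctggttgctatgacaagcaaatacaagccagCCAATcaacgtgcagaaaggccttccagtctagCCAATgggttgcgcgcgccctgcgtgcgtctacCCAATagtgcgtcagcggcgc
The Ccnb2 sequence carries 3 CCAAT words that begin 87, 54 and 21 bases before the gene start, and Cdc20 has a CHR word that begins 18 bases before it. Mki67 has a pair of CHR words downstream of its CCAAT words. Top2a holds 4 CHR and 5 CCAAT words in the stretch shown, and in Cdk1 a CHR word sits between CCAAT words of the other strand. Words nearer the gene start lie outside the stretches shown. They include a CHR word that begins 15 bases before it in Cdk1 and one that begins 4 bases after it in Ccnb2. In Cdc20, a CCAAT word begins 8 bases before the start. No window match was found in Mad2l1, Birc5, Nuf2 or Nusap1.

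**Figure D1:**
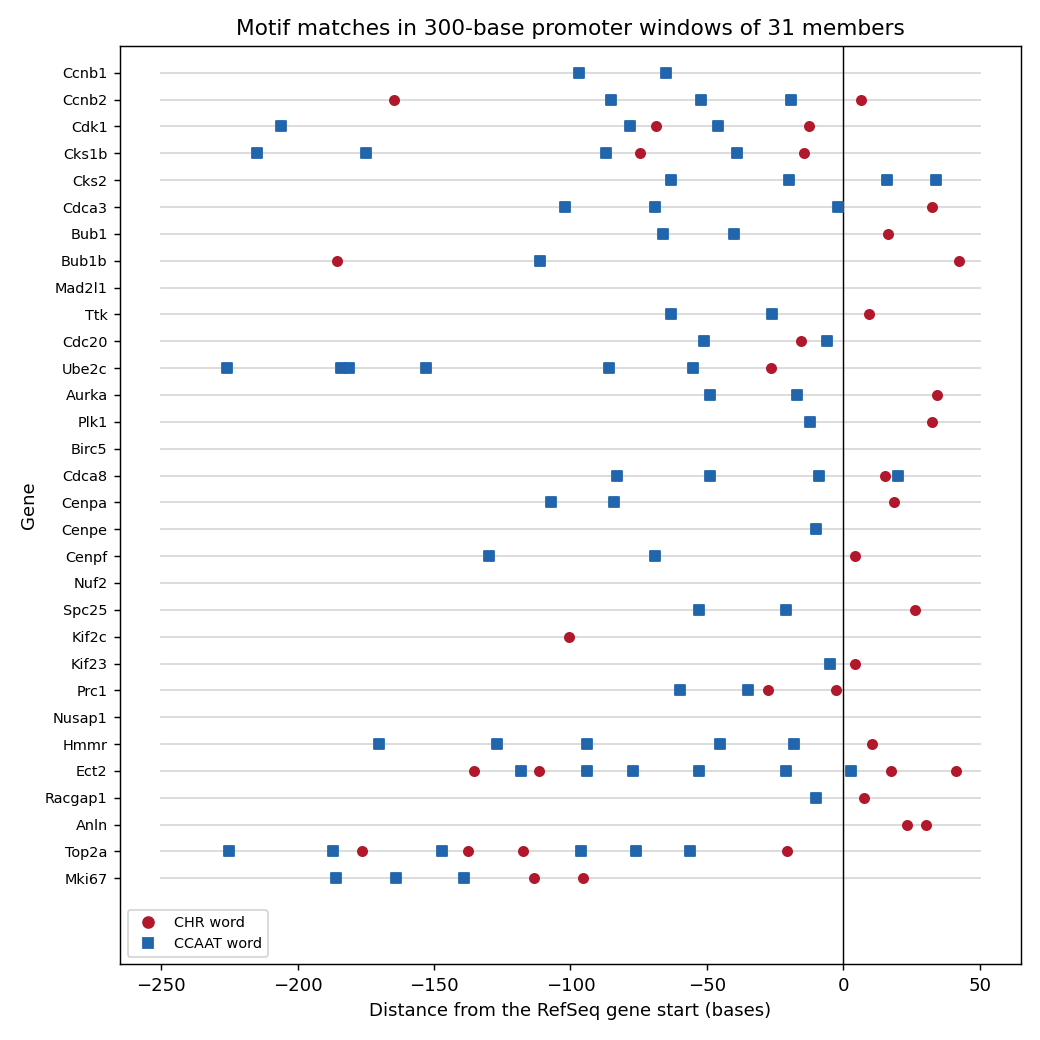
Positions of the CHR words (circles) and CCAAT words (squares) in the promoter windows of 31 members, as the distance of the middle of each word from the RefSeq gene start in bases; each line is a member. CHR words occur in 24 members and CCAAT words in 25, and 4 members have neither.

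Total counts ran from 7748787 to 14325276 in the 8 homozygous libraries and from 8099655 to 15742445 in the 8 heterozygous ones. Levels are given as CPM, counts scaled to a common library total adjusted with TMM. Zfp318 (ENSMUSG00000015597, GRCm38 chromosome 17, 46383731 to 46420920, plus strand) lay between 0.5 and 5.8 CPM in the homozygous and between 70.9 and 152.8 CPM in the heterozygous libraries, so every library matched its genotype label. Genotype coincided with the deposited table. The counts amounted to 0.369 to 0.419 per read of the authors' per-million divisor in the homozygous table and to 1.35 to 1.5 in the heterozygous one. Genotype and any batch or counting step that differed between the tables therefore cannot be told apart. The sort excluded surface IgD, which is known to need Zfp318, so a difference in which cells entered the gate cannot be told apart from genotype either. The B cell markers Cd79a, Cd79b and Ms4a1 were present in every library, with at least 837.9 CPM each. B cell markers also differed with genotype: the 8 summed to 15319.7 to 17012.0 CPM in KOTP and 9828.4 to 12022.2 CPM in HetTP libraries, and to 15226.3 to 15801.9 CPM in KOTN and 10978.7 to 14516.6 CPM in HetTN libraries. Of them, 5 were higher in KOTP than in HetTP cells and 4 in KOTN than in HetTN cells, while Pax5, a B cell identity factor gene, was lower in both, with -1.54 (adjusted p = 0.0152, SE 0.39) in KOTP over HetTP and -1.61 (adjusted p = 0.0137, SE 0.39) in KOTN over HetTN.

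The homozygous cells held lower levels of the mitotic program than the heterozygous cells of the same tdTomato class. Summed over the 34 members, the level was 1123.7, 753.1, 715.8 and 899.1 CPM in KOTP libraries, against 1347.3, 3891.5, 3526.0 and 2519.4 CPM in HetTP libraries. It was 1091.5, 1418.9, 1373.2 and 1438.8 CPM in KOTN libraries, against 1743.2, 3849.7, 2917.3 and 3486.8 CPM in HetTN libraries. The summed level of every homozygous library lay below that of every heterozygous library of its tdTomato class, and the lowest heterozygous library, HetTP replicate 1, lay inside the KOTN range. KOTP had the lowest mean of the 4 groups for 33 of the 34 members, the exception being Prc1. In these bulk samples, fewer dividing cells and less of each messenger RNA per cell cannot be told apart.

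**Figure D2:**
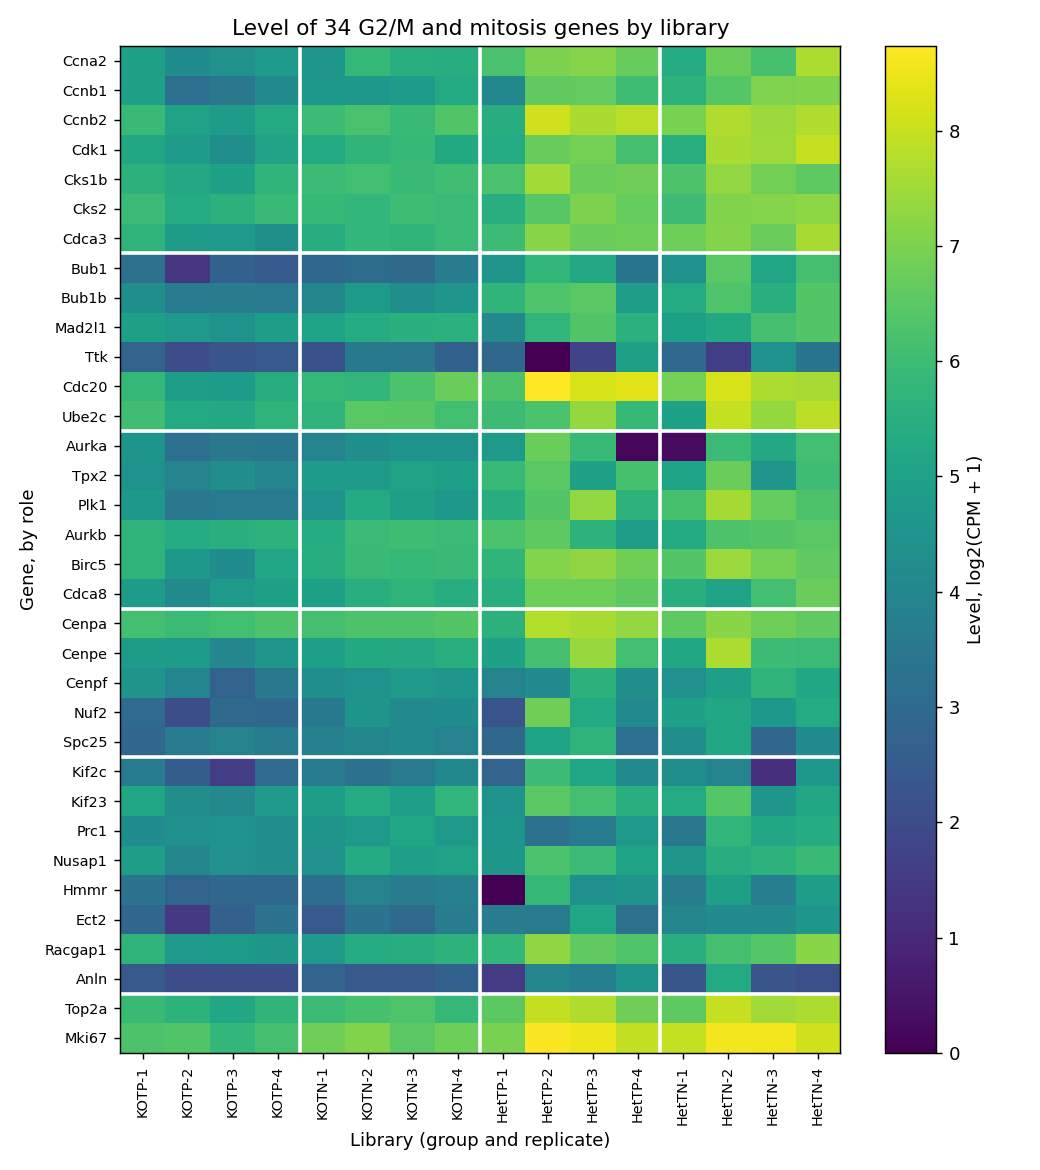
Level of each of the 34 members, log2(CPM + 1), in the 16 libraries, with the groups KOTP, KOTN, HetTP and HetTN from left to right and genes grouped by role from top to bottom. Most members are darker (lower) in the 8 homozygous libraries, and Ttk, Aurka and Hmmr have isolated dark cells in heterozygous libraries.

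Among tdTomato-positive cells, 20 members were lower and none was higher in KOTP than in HetTP cells at an adjusted p under 0.05 (edgeR's quasi-likelihood test on all 16 libraries, Benjamini-Hochberg over the 10687 genes tested). Over all genes tested, 5.22% were called lower and 5.06% higher. The fold change was negative for 33 of 34 members, and the median log2 fold change was -1.79, against -0.03 over all genes tested. For 15 members every KOTP library lay below every HetTP library, a pattern that 8.69% of the genes tested showed. The largest changes among the called members were those of Cdc20, Nuf2, Bub1 and Plk1.

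Among tdTomato-negative cells, 13 members were lower and none was higher in KOTN than in HetTN cells by the same test, where 4.88% of all genes tested were called lower and 5.61% higher. All 34 fold changes were negative, with a median log2 fold change of -1.13, against 0 over all genes tested. In 14 members the groups did not overlap, against 7.12% of the genes tested. Of the calls, 12 were shared by both genotype comparisons, which is 60.0% of those in tdTomato-positive and 92.3% of those in tdTomato-negative cells. Without KOTN replicate 1, 2 or 3, the number called in tdTomato-negative cells was 7, 8 and 7, all lower.

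**Figure D3:**
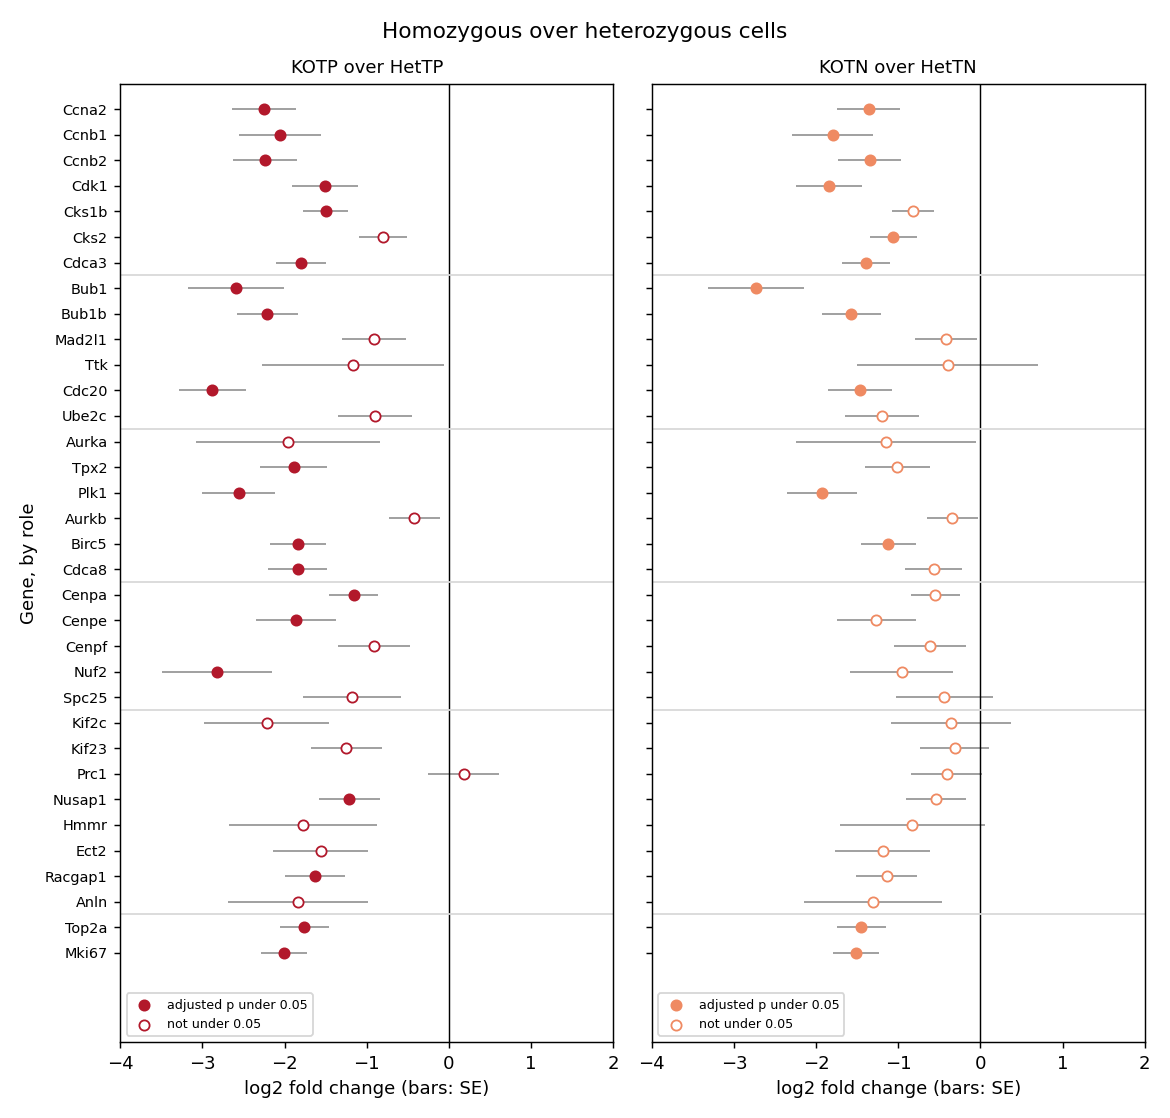
Log2 fold change of each member in KOTP over HetTP (left) and KOTN over HetTN (right), with bars of 1 SE and filled points where the adjusted p was under 0.05. In the left panel 20 members are filled and in the right panel 13, all of them left of 0.

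Levels of other cell types' markers also differed between the genotypes. The 12 macrophage and monocyte markers summed to 56.2 to 91.2 CPM in KOTP and 122.1 to 707.4 CPM in HetTP libraries, and to 69.3 to 107.7 CPM in KOTN and 453.7 to 1328.7 CPM in HetTN libraries. Of the 11 tested, 6 were lower in KOTP than in HetTP cells and 7 were lower in KOTN than in HetTN cells. The fold change was negative for 10 of the 11 in each comparison. Adgre1 went the other way, with 32.7 to 55.5 CPM in the homozygous and 0 to 21.8 CPM in the heterozygous libraries. It passed the test in neither comparison. The 14 T cell markers summed to 664.5 to 712.6 CPM in KOTP and 503.1 to 1044.6 CPM in HetTP libraries, and to 570.8 to 639.6 CPM in KOTN and 522.8 to 805.4 CPM in HetTN libraries. Most of the homozygous sums came from Cd2, with 528.5 to 659.4 CPM. In the heterozygous libraries Cd2 had 189.5 to 368.7 CPM. Of the 8 tested, Trac, Trbc2 and Lck were lower and Cd2 was higher in KOTP than in HetTP cells. In KOTN over HetTN, 3 were lower and 2 higher. Among the defining T cell genes, Trac reached at most 0.2 CPM in the homozygous libraries and 100.1 to 432.8 CPM in the heterozygous ones. Cd3e had 0 CPM in the homozygous libraries and 0 to 10.5 CPM in the heterozygous ones. In HetTN replicate 3, where Trac had 283.7 CPM, both Cd3e and Cd3g had 0 CPM. Cd4 and Cd28 had no count in any library, so whether they were absent or not counted cannot be told. Cd3d exceeded 10 CPM in HetTN replicates 1 and 2 and HetTP replicate 3. Without those 3 libraries, 19 members were lower in KOTP than in HetTP cells and 12 in KOTN than in HetTN cells, but Trac remained at 110.6 to 353.9 CPM in the heterozygous libraries that were kept. The 8 plasma cell markers summed to 1100.6 to 1212.9 CPM in KOTP and 900.9 to 928.9 CPM in HetTP libraries, and to 1174.2 to 1326.7 CPM in KOTN and 1159.6 to 2233.2 CPM in HetTN libraries. Of the 7 tested, Jchain, the immunoglobulin joining chain gene, was lower in both comparisons, with -4.44 (adjusted p = 2.24e-05, SE 0.52) in KOTP over HetTP and -2.78 (adjusted p = 0.000898, SE 0.47) in KOTN over HetTN. Irf4 was also lower and Mzb1 higher in KOTP than in HetTP cells, with -1.67 (adjusted p = 0.0176, SE 0.44) and 0.82 (adjusted p = 0.000645, SE 0.14), and Slamf7 was lower in KOTN than in HetTN cells, with -0.96 (adjusted p = 0.042, SE 0.29). The parts of macrophage, T cell and plasma cell RNA in the result were not tested.

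Summed germinal center markers were also lower in the homozygous cells, although the sort had excluded GL7 and FAS. The 10 markers summed to 273.9 to 351.5 CPM in KOTP and 618.6 to 1099.3 CPM in HetTP libraries, and to 442.4 to 569.3 CPM in KOTN and 761.4 to 1188.4 CPM in HetTN libraries. Of the 9 tested, 5 were lower in KOTP than in HetTP cells and 4 were lower in KOTN than in HetTN cells. The fold change was negative for 8 of the 9 in KOTP over HetTP and for 6 in KOTN over HetTN. Fas had 86.1 to 109 CPM in KOTN and 11.6 to 87 CPM in HetTN libraries, and Rgs13 had 17.8 to 31.2 and 3.8 to 28.8 CPM. The transcription factor gene Mef2b had 35.3, 30.1, 45.4 and 26 CPM in KOTP libraries, against 170.6, 230.1, 188.2 and 148.4 CPM in HetTP libraries. These groups did not overlap. The part of germinal center RNA in the result was not tested.

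**Figure D4:**
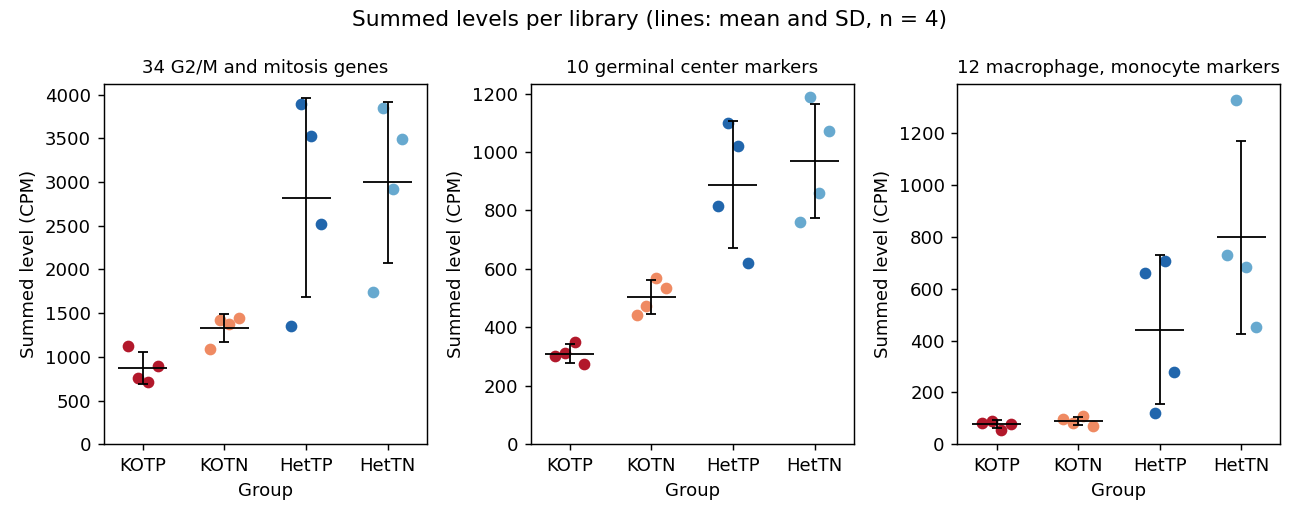
Summed level in CPM per library (points) of the 34 members, of 10 germinal center markers and of 12 macrophage and monocyte markers, in the groups KOTP, KOTN, HetTP and HetTN, with the group mean and SD (n = 4). All 3 sums have lower means in the homozygous groups than in the heterozygous groups, and the members' means are 873 CPM in KOTP, 1330.0 CPM in KOTN, 2820.0 CPM in HetTP and 3000.0 CPM in HetTN.

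The cyclins, CDK1 and its subunits, grouped with the mitotic entry gene Cdca3, were the role group with most calls. In each genotype comparison 6 of these 7 members were lower, all but Cks2 in tdTomato-positive and all but Cks1b in tdTomato-negative cells. Cdca3 (ENSMUSG00000023505, GRCm38 chromosome 6, 124829547 to 124833701, plus strand), a trigger of mitotic entry that promotes destruction of the WEE1 kinase, had 50.0, 27.3, 25.1 and 19.5 CPM in KOTP libraries, against 61.8, 143.9, 106.1 and 110.0 CPM in HetTP libraries. In tdTomato-negative cells it had 42.6, 54.1, 51.1 and 60.4 CPM in KOTN libraries, against 111.6, 138.8, 105.2 and 189.9 CPM in HetTN libraries. Neither pair of groups overlapped, and the log2 fold changes were -1.80 (adjusted p = 0.000623, SE 0.30) in KOTP over HetTP and -1.39 (adjusted p = 0.00537, SE 0.29) in KOTN over HetTN.

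Ccna2 (ENSMUSG00000027715, GRCm38 chromosome 3, 36564865 to 36572150, minus strand) encodes cyclin A2, which acts from S phase into early mitosis. It had 30.2, 18, 20.2 and 25.7 CPM in KOTP libraries, against 73.4, 127.2, 141.4 and 104.3 CPM in HetTP libraries. Its level was 23.3, 54.9, 44.5 and 42.5 CPM in KOTN libraries, against 40.5, 108.8, 72.9 and 200.8 CPM in HetTN libraries. The tdTomato-positive groups were separate, while HetTN replicate 1 fell within the KOTN range. Ccna2 fell by both tests, with log2 fold changes of -2.25 (adjusted p = 0.00089, SE 0.39) and -1.36 (adjusted p = 0.0281, SE 0.38), the first in tdTomato-positive cells. The call in tdTomato-negative cells was kept in 12 of 18 alternatives, with adjusted p between 0.00427 and 0.114. The B-type cyclin genes Ccnb1 and Ccnb2 and the kinase gene Cdk1 were lower in both comparisons too. Ccnb1 and Cks1b have retrocopies that could share their reads, so their counts are uncertain. Ccnb2 had 39.2 ± 14.3 CPM in KOTP against 185 ± 101 CPM in HetTP cells, and 69.2 ± 10.1 CPM in KOTN against 176 ± 37.7 CPM in HetTN cells (SD, n = 4 each), and its call in KOTN over HetTN was kept in 11 of 18 alternatives. The CDK-binding subunit gene Cks1b passed in KOTP over HetTP, with -1.5 (adjusted p = 0.00106, SE 0.27), and had -0.82 (adjusted p = 0.0545, SE 0.26) in KOTN over HetTN. Its paralog Cks2 showed -0.80 (adjusted p = 0.0935, SE 0.29) in KOTP over HetTP and passed in KOTN over HetTN, with -1.06 (adjusted p = 0.0251, SE 0.29). Whether these effects differ between the tdTomato classes is given with the difference test.

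Of the 6 spindle checkpoint and APC/C genes, 3 were lower in each genotype comparison, and they were the same 3: Bub1, Bub1b and Cdc20. Cdc20 (ENSMUSG00000006398, GRCm38 chromosome 4, 118432901 to 118437352, minus strand), the activator that directs the APC/C to its mitotic substrates, had 54.9, 28.5, 27.0 and 42.6 CPM in KOTP libraries, against 77.2, 424.8, 297.3 and 324.6 CPM in HetTP libraries. In tdTomato-negative cells it had 55.3, 52.8, 75.5 and 107.0 CPM in KOTN libraries, against 119.6, 291.4, 201.8 and 192.5 CPM in HetTN libraries. The groups were separate in both pairs, and HetTP replicate 1 was the lowest HetTP library. Its log2 fold changes were -2.88 (adjusted p = 0.000166, SE 0.41) in KOTP over HetTP, the largest fall among the members, and -1.47 (adjusted p = 0.0228, SE 0.39) in KOTN over HetTN, where the call was kept in 13 of 18 alternatives with adjusted p between 0.0013 and 0.0792.

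Bub1b (ENSMUSG00000040084, GRCm38 chromosome 2, 118598211 to 118641591, plus strand) encodes BUBR1, a component of the complex that inhibits CDC20 while kinetochores are unattached. It had 19.4, 10.9, 11.7 and 11.4 CPM in KOTP libraries, against 50.9, 80.1, 88.7 and 27.9 CPM in HetTP libraries. In the tdTomato-negative sort the values were 15.1, 25.9, 18.7 and 22.6 CPM in KOTN libraries, against 40, 78.8, 43.2 and 82.8 CPM in HetTN libraries. All homozygous values lay below all heterozygous ones, with log2 fold changes of -2.21 (adjusted p = 0.000673, SE 0.37) in KOTP over HetTP and -1.57 (adjusted p = 0.00982, SE 0.36) in KOTN over HetTN. The checkpoint kinase gene Bub1 had 5.13 ± 2.99 CPM in KOTP against 30.9 ± 19.2 CPM in HetTP cells and 8.22 ± 2.25 CPM in KOTN against 54.3 ± 32 CPM in HetTN cells (SD, n = 4 each). Mad2l1, which encodes the checkpoint inhibitor MAD2, passed in neither, with -0.91 (adjusted p = 0.166, SE 0.39) and -0.42 (adjusted p = 0.594, SE 0.38) in tdTomato-positive and tdTomato-negative cells. Ube2c, the APC/C's ubiquitin-conjugating enzyme, had -0.90 (adjusted p = 0.268, SE 0.45) in tdTomato-positive and -1.20 (adjusted p = 0.102, SE 0.45) in tdTomato-negative cells. Ttk, the MPS1 kinase gene, could hardly be read: it had no count in HetTP replicate 2 and 30.4 CPM in HetTP replicate 4, and its log2 fold changes were -1.17 (adjusted p = 0.659, SE 1.11) and -0.40 (adjusted p = 0.896, SE 1.10).

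The mitotic kinases and chromosomal passengers held 4 called members of 6 in tdTomato-positive and 2 of 6 in tdTomato-negative cells, all lower. Plk1 (ENSMUSG00000030867, GRCm38 chromosome 7, 122159439 to 122169873, plus strand), the Polo-like kinase that acts in mitotic entry and spindle formation, had 24.5, 10.1, 10.7 and 10.9 CPM in KOTP libraries, against 42.9, 82.3, 157.0 and 48.6 CPM in HetTP libraries. It had 20.9, 39.7, 30.5 and 24.2 CPM in KOTN libraries, against 72.9, 188.9, 101.3 and 76.6 CPM in HetTN libraries. Neither pair of groups overlapped, and KOTP replicate 1 stood above the other KOTP libraries. The log2 fold changes were -2.56 (adjusted p = 0.000796, SE 0.44) in KOTP over HetTP and -1.93 (adjusted p = 0.00732, SE 0.43) in KOTN over HetTN. Exons of Gm44985 on the opposite strand overlap Plk1, and the strand setting of the counting is not given in the sources used here, so reads of both genes cannot be told apart.

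Birc5 (ENSMUSG00000017716, GRCm38 chromosome 11, 117849251 to 117855743, plus strand) encodes survivin, a subunit of the chromosomal passenger complex with Aurora B. It had 50.8, 24.3, 18.2 and 34.3 CPM in KOTP libraries, against 52.1, 136.8, 154.3 and 112.9 CPM in HetTP libraries. Its level was 42.7, 58.1, 55.9 and 59.5 CPM in KOTN libraries, against 83.4, 169.3, 118.1 and 96.9 CPM in HetTN libraries. The groups were separate in both pairs, although HetTP replicate 1 exceeded KOTP replicate 1 by little. Its log2 fold changes were -1.84 (adjusted p = 0.00137, SE 0.34) in tdTomato-positive and -1.12 (adjusted p = 0.037, SE 0.33) in tdTomato-negative cells, where the call was kept in 8 of 18 alternatives with adjusted p between 0.00853 and 0.108. The Aurora A activator gene Tpx2 and Cdca8, which encodes the passenger subunit borealin, were lower in KOTP than in HetTP cells and did not pass in KOTN over HetTN, with -1.89 (adjusted p = 0.00517, SE 0.41) and -1.84 (adjusted p = 0.00211, SE 0.36) in KOTP over HetTP. Aurkb itself, the kinase of that complex, had 46.2 ± 4.12 CPM in KOTP against 61.8 ± 29 CPM in HetTP cells (SD, n = 4 each), with -0.42 (adjusted p = 0.529, SE 0.31). In tdTomato-negative cells its log2 fold change was -0.34 (adjusted p = 0.593, SE 0.31). Aurka, the spindle pole kinase gene, had 0.1 CPM in HetTP replicate 4 and 0.2 CPM in HetTN replicate 1 but 25.6 to 109.0 CPM in the other HetTP libraries. Its log2 fold changes were -1.96 (adjusted p = 0.365, SE 1.12) in tdTomato-positive and -1.15 (adjusted p = 0.615, SE 1.10) in tdTomato-negative cells.

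Among the 5 centromere and kinetochore genes, 3 were lower in KOTP than in HetTP cells and none passed in KOTN over HetTN. Nuf2 (ENSMUSG00000026683, GRCm38 chromosome 1, 169497934 to 169531464, minus strand), a subunit of the NDC80 complex that holds microtubules, had 7.3, 3.2, 7.1 and 6.8 CPM in KOTP libraries, against 3.8, 113.1, 39.3 and 16.6 CPM in HetTP libraries. In tdTomato-negative cells it had 10.5, 21.8, 17.2 and 17.8 CPM in KOTN libraries, against 30.7, 35.7, 24.0 and 40.5 CPM in HetTN libraries. The HetTP libraries spread widely and their lowest fell inside the KOTP range, while KOTN and HetTN did not overlap. The log2 fold changes were -2.82 (adjusted p = 0.00937, SE 0.67) in KOTP over HetTP and -0.96 (adjusted p = 0.408, SE 0.63) in KOTN over HetTN. Across 18 alternative settings, the Nuf2 call in tdTomato-positive cells was kept in 14, with adjusted p between 0.000155 and 0.0664.

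Cenpa (ENSMUSG00000029177, GRCm38 chromosome 5, 30666777 to 30674830, plus strand), the histone H3 variant that marks centromeres, had 69.5, 61.7, 66.6 and 76.7 CPM in KOTP libraries, against 47.7, 208.6, 195.6 and 158.9 CPM in HetTP libraries. It had 69.9, 76.6, 77.6 and 82.3 CPM in KOTN libraries, against 94.6, 145.0, 110.4 and 97.0 CPM in HetTN libraries. The KOTP libraries were close to each other, HetTP replicate 1 lay below all of them, and the other HetTP libraries lay above. Its log2 fold changes were -1.16 (adjusted p = 0.0177, SE 0.30) in KOTP over HetTP, kept in 13 of 18 alternatives with adjusted p between 4.08e-05 and 0.0682, and -0.55 (adjusted p = 0.294, SE 0.30) in KOTN over HetTN. The kinetochore motor gene Cenpe was also lower in KOTP than in HetTP cells, with -1.86 (adjusted p = 0.0178, SE 0.49). Cenpf, a large kinetochore protein gene, passed in neither, with -0.91 (adjusted p = 0.25, SE 0.44) in tdTomato-positive and -0.61 (adjusted p = 0.471, SE 0.44) in tdTomato-negative cells. Spc25, another NDC80 complex gene, had -1.18 (adjusted p = 0.271, SE 0.60) and -0.44 (adjusted p = 0.742, SE 0.59) in those comparisons.

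Of the 8 spindle and cytokinesis genes, 2 were called lower in tdTomato-positive and 0 in tdTomato-negative cells, where the fold changes were nonetheless all negative, with a median log2 fold change of -0.69. At an unadjusted p under 0.05, 18 of the 34 members passed in tdTomato-negative cells, against 23.5% of the genes tested, and DESeq2 called 17 and voom 11 of the 34. Racgap1 (ENSMUSG00000023015, GRCm38 chromosome 15, 99620496 to 99651656, minus strand) encodes a subunit of centralspindlin, which organises the spindle midzone. It had 50.2, 24.7, 26 and 23.5 CPM in KOTP libraries, against 54.0, 155.6, 95.9 and 79.4 CPM in HetTP libraries. Its level was 24.8, 41.7, 42.7 and 48.9 CPM in KOTN libraries, against 45.0, 70.4, 86.3 and 145.2 CPM in HetTN libraries. KOTP replicate 1 stood above the other KOTP libraries but below all HetTP libraries, and the tdTomato-negative groups overlapped at HetTN replicate 1. The log2 fold changes were -1.63 (adjusted p = 0.00751, SE 0.37) in KOTP over HetTP and -1.14 (adjusted p = 0.0578, SE 0.37) in KOTN over HetTN.

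Nusap1 (ENSMUSG00000027306, GRCm38 chromosome 2, 119618298 to 119651244, plus strand), a microtubule bundling protein gene, had 28.1, 15.0, 20.3 and 18.8 CPM in KOTP libraries, against 23.6, 73.2, 61.0 and 32.2 CPM in HetTP libraries. Values of 20.2, 39.1, 29.2 and 31.4 CPM were found in KOTN libraries, against 23.8, 42.9, 48.7 and 59.0 CPM in HetTN libraries. Both pairs overlapped. The log2 fold change was -1.21 (adjusted p = 0.0432, SE 0.37) in KOTP over HetTP, a call kept in 7 of 18 alternatives with adjusted p between 0.0133 and 0.143, and -0.54 (adjusted p = 0.427, SE 0.37) in KOTN over HetTN. Prc1, which crosslinks midzone microtubules, was the only member with a positive fold change in KOTP over HetTP, at 0.18 (adjusted p = 0.899, SE 0.43), and it had -0.41 (adjusted p = 0.654, SE 0.43) in KOTN over HetTN. Its exons are overlapped by Rccd1 on the opposite strand, so its counts are uncertain as well.

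The other members of this role passed in neither genotype comparison. Kif23, the kinesin of centralspindlin, had -1.25 (adjusted p = 0.075, SE 0.43) in tdTomato-positive and -0.31 (adjusted p = 0.745, SE 0.42) in tdTomato-negative cells. Kif2c, a microtubule depolymerase gene, had -2.22 (adjusted p = 0.0745, SE 0.76) and -0.36 (adjusted p = 0.843, SE 0.73), in the same order of comparisons. For Ect2, which activates RhoA at the division plane, the values were -1.56 (adjusted p = 0.106, SE 0.58) and -1.19 (adjusted p = 0.222, SE 0.58). Anln encodes anillin of the contractile ring, and its log2 fold changes were -1.84 (adjusted p = 0.218, SE 0.85) and -1.31 (adjusted p = 0.396, SE 0.84). Hmmr, a spindle and hyaluronan receptor gene with no count in HetTP replicate 1, had -1.78 (adjusted p = 0.272, SE 0.90) and -0.83 (adjusted p = 0.659, SE 0.88). Anln averaged 3.58 ± 0.705 CPM in KOTP and 12.8 ± 8.29 CPM in HetTP cells (SD, n = 4 each).

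Both chromosome structure genes were lower in both genotype comparisons. Mki67 (ENSMUSG00000031004, GRCm38 chromosome 7, 135689784 to 135716361, minus strand) encodes Ki-67, which coats mitotic chromosomes and is a common label of dividing cells. It had 77.9, 81.0, 53.7 and 71.0 CPM in KOTP libraries, against 123.8, 409.4, 362.3 and 243.5 CPM in HetTP libraries. In tdTomato-negative cells it had 113.2, 133.3, 88.8 and 111.8 CPM in KOTN libraries, against 247.4, 385.0, 374.3 and 271.2 CPM in HetTN libraries. No homozygous library reached the lowest heterozygous one of its class. Its log2 fold changes were -2.01 (adjusted p = 0.000116, SE 0.28) in KOTP over HetTP, the smallest adjusted p among the members, and -1.52 (adjusted p = 0.00163, SE 0.28) in KOTN over HetTN.

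Top2a (ENSMUSG00000020914, GRCm38 chromosome 11, 98992943 to 99024189, minus strand) encodes topoisomerase II alpha, which untangles sister chromatids. It had 57.6, 48.7, 36.1 and 51.1 CPM in KOTP libraries, against 91.6, 241.7, 204.3 and 114.8 CPM in HetTP libraries. The tdTomato-negative values were 61.4, 71.7, 78.6 and 55.7 CPM in KOTN libraries, against 93.2, 250.5, 182.3 and 203.3 CPM in HetTN libraries. Groups were separate in both pairs, with log2 fold changes of -1.76 (adjusted p = 0.000886, SE 0.30) in KOTP over HetTP and -1.45 (adjusted p = 0.00488, SE 0.30) in KOTN over HetTN.

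Within homozygous cells, 10 of the 34 members were lower in the tdTomato-positive than in the tdTomato-negative fraction. The summed level was 1123.7, 753.1, 715.8 and 899.1 CPM in KOTP libraries, against 1091.5, 1418.9, 1373.2 and 1438.8 CPM in KOTN libraries. The groups overlapped, since KOTP replicate 1 lay above KOTN replicate 1, and KOTP replicate 1 was inside the KOTN range for 20 members. All 34 fold changes of KOTP over KOTN were negative, with a median log2 fold change of -0.66, against 0.01 over all genes tested. In the fit of the 8 homozygous libraries, these 10 were called and none was higher, where 1.47% of the 9974 genes tested were called lower. The groups did not overlap for 10 members, against 4.39% of the genes tested, with 3.06% apart in the other direction. These libraries share 1 table. The biological coefficient of variation was 0.2 among them, against 0.845 among the 8 heterozygous libraries.

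The called members belonged to 5 of the 6 roles, and none was a spindle and cytokinesis gene. Nuf2 changed most, with 7.3, 3.2, 7.1 and 6.8 CPM in KOTP libraries, against 10.5, 21.8, 17.2 and 17.8 CPM in KOTN libraries, and a log2 fold change of -1.45 (adjusted p = 0.00361, SE 0.28). For Mki67 the levels were 77.9, 81.0, 53.7 and 71.0 CPM in KOTP libraries, against 113.2, 133.3, 88.8 and 111.8 CPM in KOTN libraries, with -0.65 (adjusted p = 0.00563, SE 0.13). Neither gene's groups overlapped. Ccna2 passed with -0.80 (adjusted p = 0.0481, SE 0.21) although KOTN replicate 1 lay inside the KOTP range. The cyclin and CDK genes Ccnb2, Cdk1 and Cks1b had log2 fold changes of -0.81 (adjusted p = 0.0401, SE 0.20), -0.66 (adjusted p = 0.0454, SE 0.18) and -0.59 (adjusted p = 0.0255, SE 0.14). Mad2l1, which passed in neither genotype comparison, was lower here, with 26.3 ± 3.89 CPM in KOTP against 41.8 ± 6.83 CPM in KOTN cells (SD, n = 4 each) and -0.66 (adjusted p = 0.0255, SE 0.16). The remaining calls were Tpx2 with -0.73 (adjusted p = 0.0296, SE 0.19), Cdca8 with -0.73 (adjusted p = 0.0268, SE 0.18) and Cenpe with -0.70 (adjusted p = 0.0371, SE 0.18).

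Several members with the clearest genotype difference did not pass between the tdTomato classes. Cdc20 had -0.91 (adjusted p = 0.234, SE 0.30) in KOTP over KOTN, Plk1 -1.03 (adjusted p = 0.0508, SE 0.27), Cdca3 -0.77 (adjusted p = 0.122, SE 0.23) and Top2a -0.46 (adjusted p = 0.101, SE 0.14). The others of the 12 members given in full had -0.62 (adjusted p = 0.203, SE 0.23) for Bub1b, -0.75 (adjusted p = 0.211, SE 0.26) for Birc5 and -0.54 (adjusted p = 0.232, SE 0.21) for Nusap1. Cenpa and Racgap1 had -0.14 (adjusted p = 0.699, SE 0.11) and -0.34 (adjusted p = 0.694, SE 0.25).

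The count of calls between KOTP and KOTN depended on which libraries were used. KOTP replicate 1 was the highest KOTP library for 27 of 34 members, and without it 18 members were lower. KOTN replicate 1 was the lowest KOTN library for 23 members, and without it 12 were lower. Leaving out KOTN replicate 2, 3 or 4 left 2, 3 and 2 members, and leaving out KOTP replicate 2, 3 or 4 left 2, 3 and 5. The fit of all 16 libraries, whose spread includes the heterozygous table, called none of the 34, while DESeq2 called 13 and voom 17 in the homozygous libraries. At an unadjusted p under 0.05, 26 of 34 members passed in the 8-library fit, against 12% of the genes tested. Germinal center markers were lower in the same direction, with sums of 273.9 to 351.5 CPM in KOTP and 442.4 to 569.3 CPM in KOTN libraries and 4 of 9 tested markers called lower. Their part was not tested. The macrophage markers summed to 56.2 to 91.2 CPM in KOTP and 69.3 to 107.7 CPM in KOTN libraries, with 1 of 10 tested called, Hmox1, which was lower. This comparison uses the same KOTP libraries as the comparison with HetTP cells.

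In heterozygous cells no member passed the test between the tdTomato classes. With edgeR's quasi-likelihood test on the 8 heterozygous libraries, 0 of 34 members and 0% of the 9703 genes tested were called, DESeq2 and voom called 0 members, and 1 member, Cdk1, had an unadjusted p under 0.05. The fold change was negative for 17 members, with a median log2 fold change of -0.01, against 0.02 over all genes tested. Every member's groups overlapped, while 2.25% of the genes tested were apart with HetTP lower and 2.6% with HetTP higher. The members with the smallest p were Cdk1, Prc1 and Ube2c. Cdk1 had 40, 102.5, 118.5 and 70.8 CPM in HetTP libraries, against 45.0, 194.6, 175.1 and 248.9 CPM in HetTN libraries, with a log2 fold change of -1.0 (adjusted p = 0.989, SE 0.45). Prc1 had 23.0, 8.6, 11.3 and 25.5 CPM in HetTP libraries, against 10.4, 52.3, 36.2 and 41.8 CPM in HetTN libraries, with -1.04 (adjusted p = 1, SE 0.57). Ube2c had 62.1, 76.1, 161.0 and 56.5 CPM in HetTP libraries, against 30.7, 246.8, 163.3 and 234.7 CPM in HetTN libraries, with -0.92 (adjusted p = 1, SE 0.52). In all of these genes HetTN replicate 1 lay far below the other HetTN libraries, within or below the HetTP range. Mki67 and Cdc20 had -0.16 (adjusted p = 1, SE 0.32) and 0.48 (adjusted p = 1, SE 0.41) in HetTP over HetTN. The SE of these fold changes exceeded those of the same genes in homozygous cells, where Cdk1 had -0.66 (adjusted p = 0.0454, SE 0.18).

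**Figure D5:**
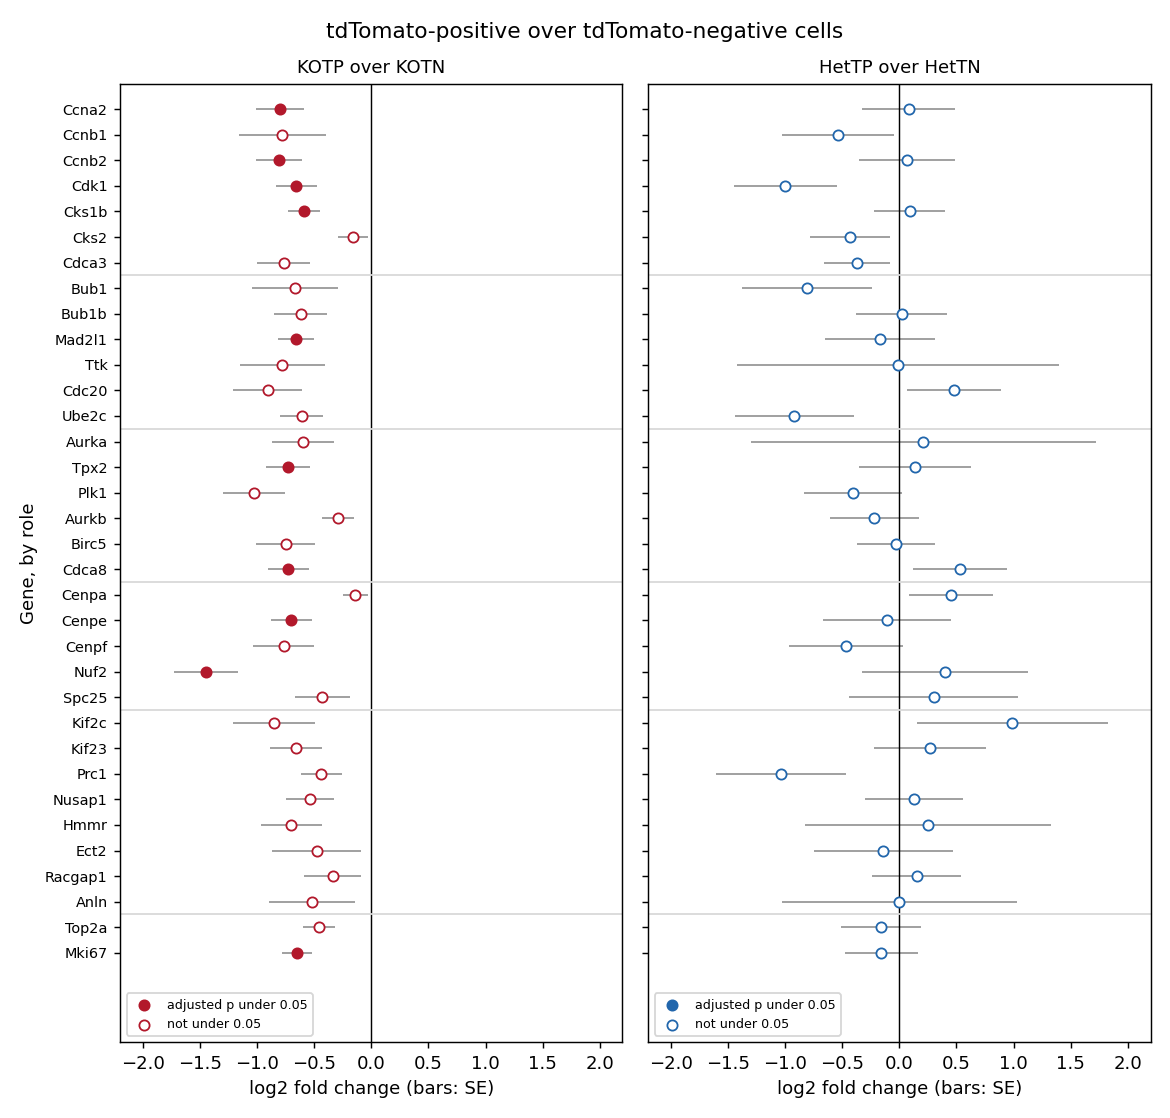
Log2 fold change of each member in KOTP over KOTN (left) and HetTP over HetTN (right), with bars of 1 SE and filled points where the adjusted p was under 0.05. All 34 points lie left of 0 in the left panel, where 10 are filled; in the right panel 17 lie left of 0 and none is filled.

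The difference between the tdTomato effects of the genotypes was tested directly in the fit of all 16 libraries. With edgeR's quasi-likelihood test, 0 of 34 members were called, against 0.0468% of genes lower and 0.0749% higher, DESeq2 and voom also called 0 members, and 2 members had an unadjusted p under 0.05. The estimate was negative for 29 members, with a median of -0.62 on the log2 scale, against -0.05 over all genes tested. Cdca8 had the smallest p, with -1.27 (adjusted p = 0.369, SE 0.49), followed by Cdc20 with -1.41 (adjusted p = 0.381, SE 0.55) and Nuf2 with -1.87 (adjusted p = 0.54, SE 0.89). The tdTomato effects of the genotypes, or the genotype effects of the tdTomato classes, were therefore not shown to differ for any member.

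The spread of the members among libraries also differed in size between the groups. The members' median coefficient of variation was 26.5% in KOTP, 19.5% in KOTN, 52.7% in HetTP and 47.0% in HetTN libraries. For the tested genes whose means fell within the members' range it was 18.1%, 16%, 35.7% and 40.6% in KOTP, KOTN, HetTP and HetTN. HetTP replicate 1 was the lowest HetTP library for 25 of 34 members and HetTN replicate 1 the lowest HetTN library for 25. Without HetTP replicate 1, 25 members were lower in KOTP than in HetTP cells, and without HetTN replicate 1, 17 were lower in KOTN than in HetTN cells.

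Other genes of the division machinery, taken from lists of further components, passed the test in part. Beside their counts stand 5.22% of all genes tested called lower in KOTP over HetTP and 4.88% in KOTN over HetTN. Of 34 tested genes of the kinetochore and its checkpoint, 6 were lower and none higher in KOTP than in HetTP cells, with a median log2 fold change of -1.03, and 2 were lower in KOTN than in HetTN cells, with a median of -0.85, so that the share in tdTomato-negative cells was near that of all genes. The NDC80 complex gene Spc24 had a log2 fold change of -1.90 (adjusted p = 0.00144, SE 0.35) in KOTP over HetTP, and the centromere gene Cenpm had -1.45 (adjusted p = 0.00467, SE 0.31). Of 24 tested kinesin and spindle genes, 8 were lower in KOTP than in HetTP cells (median -1.75) and 4 in KOTN than in HetTN cells (median -0.62). Stmn1, which encodes a microtubule destabiliser, had 68.2, 56.7, 53.8 and 65.4 CPM in KOTP libraries, against 144.1, 442.9, 296.8 and 193.9 CPM in HetTP libraries. The groups did not overlap. Its log2 fold change was -2.14 (adjusted p = 3.21e-05, SE 0.26), and the spindle gene Ckap2l had -2.52 (adjusted p = 0.000822, SE 0.43). Kif11 and Nek2 had no count in any of the 16 libraries, so whether they were absent or not counted cannot be told.

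Of 14 tested condensin and sister separation genes, 4 were lower in KOTP than in HetTP cells (median -0.87) and 3 in KOTN than in HetTN cells (median -0.57). The condensin I subunit genes Ncaph and Ncapg had -2.01 (adjusted p = 0.000199, SE 0.30) and -2.61 (adjusted p = 0.000256, SE 0.40) in KOTP over HetTP. Of 13 tested genes of mitotic entry and APC/C inhibition, 5 were lower in KOTP than in HetTP cells (median -1.31) and 2 in KOTN than in HetTN cells (median -1.07). Among them were the kinase gene Melk, with -2.54 (adjusted p = 0.0108, SE 0.62), and the phosphatase gene Cdc25b, which activates CDK1, with -1.72 (adjusted p = 0.0117, SE 0.42). Each of these lists had no member called higher in either genotype comparison.

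A further list held 14 APC/C subunit genes with the activator gene Fzr1 and the enzyme gene Ube2s. Of these 16, 1 was lower and 1 higher in KOTP than in HetTP cells, with a median log2 fold change of -0.07, and 1 was lower in KOTN than in HetTN cells. The higher one was the subunit gene Anapc16, with 0.96 (adjusted p = 0.00751, SE 0.22), and the lower one was Ube2s, the chain-extending ubiquitin-conjugating enzyme that works with the APC/C, with -0.80 (adjusted p = 0.0133, SE 0.20). The list of regulators held the MuvB, B-MYB, FOXM1 and NF-Y genes with Rbl1, Rbl2, E2f4, E2f5 and Tfdp1. Of the 14 tested, 2 were lower in KOTP than in HetTP cells (median -0.40) and 1 in KOTN than in HetTN cells (median 0.01). Foxm1 did not pass in KOTP over HetTP, with -3.6 (adjusted p = 0.0636, SE 1.19). Nfya had no count in any library, so whether it was absent or not counted cannot be told. Mybl2, which encodes B-MYB, had 5.1, 4.8, 7.1 and 10.3 CPM in KOTP libraries, against 38.7, 63.2, 29.4 and 44.4 CPM in HetTP libraries. It had 8.2, 14.4, 7.9 and 10.6 CPM in KOTN libraries, against 67.6, 46.5, 20.3 and 27.9 CPM in HetTN libraries. No homozygous value reached a heterozygous one, and the log2 fold changes were -2.68 (adjusted p = 0.000371, SE 0.42) in KOTP over HetTP and -1.99 (adjusted p = 0.0046, SE 0.41) in KOTN over HetTN. Tfdp1, a partner of E2F factors, had -1.16 (adjusted p = 0.0135, SE 0.29) in KOTP over HetTP.

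Between the tdTomato classes of homozygous cells, the further lists had few calls, where 1.47% of all genes tested were called lower. They held 1 of 33 tested kinetochore and checkpoint genes, 3 of 23 kinesin and spindle genes, 1 of 14 condensin and sister separation genes and 1 of 13 mitotic entry genes, all lower in KOTP. No gene of the APC/C list and no regulator was called. Medians of the log2 fold change were -0.27, -0.62, -0.23 and -0.21 for the lists with calls, -0.03 for the APC/C list and -0.02 for the regulators, against 0.01 over all genes tested.

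Changes were also set beside the promoter words. The 24 members with a CHR word had a median log2 fold change of -1.77 in KOTP over HetTP, with 13 called lower, and the 7 members without had -1.84, with 5 called lower. In KOTN over HetTN the medians were -1.17 and -1.06, and in KOTP over KOTN -0.66 and -0.70, each given first for members with the word. For CCAAT, 15 of 25 members with the word and 3 of 6 without were called lower in KOTP over HetTP, with medians of -1.76 and -1.84. In KOTN over HetTN, 11 of 25 with the word and 1 of 6 without were called lower, with medians of -1.19 and -0.75, and in KOTP over KOTN 6 of 25 and 2 of 6, with medians of -0.66 and -0.70. These values are a description without a test.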

How the data were processed

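Sorted B cells of 4 groups (KOTP, KOTN, HetTP, HetTN; 4 libraries each) were profiled by Smart-seq2. The deposited counts are raw reads over coding sequence per gene, 1 table per genotype, per the file headers. Per the submitters' processing notes, Trim Galore, STAR 2.2.0, featureCounts and mm10 were used; the strand setting is not given in the sources used here. Other columns hold the authors' read-scaled values, per the file headers, and served only to recover the divisor.

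The 22675 genes that both tables share were filtered with filterByExpr by group. This kept 10687 genes for the fit of 16 libraries, 9703 for the 8 heterozygous and 9974 for the 8 homozygous libraries. The genes kept were tested with edgeR 4.0.16 (R 4.3.3, robust quasi-likelihood, TMM), with Benjamini-Hochberg adjustment over all genes tested and a threshold of 0.05. Genotype comparisons and the difference of tdTomato effects used all 16 libraries. Comparisons within a genotype used its own 8 libraries, because the spread differed between the tables. The fit of all 16 libraries shared 1 estimate of this unequal spread, with a biological coefficient of variation of 0.687. The SE and p-values of the genotype comparisons and of the difference test therefore assume a spread that the genotypes did not share. The code was tested on simulated data. Total counts of 7748787 to 15742445 per library set the precision. The alternatives were other scalings, filters, DESeq2 1.42.0, limma 3.58.1 voom, the replicate number as a block and each library left out.

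Full values are given for the 2 members of each role with the smallest p among those called in KOTP over HetTP. The members, lists and tests were chosen with earlier results of these data known.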

Additional observations from a re-analysis of the deposited data

Results flagged for a closer look

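Within the groups of 4 libraries, 140 sets of values were examined for a library far from the other 3 by Dixon's ratio at its 0.05 level. The ratio was exceeded in 12 sets. Chance would give about 7 if the values were normally distributed. These were CPM values without a log, and the sets share libraries, so the 2 counts do not measure an excess over chance. In KOTP, replicate 1 stood high for Bub1b (19.4 CPM, others 10.9 to 11.7), Aurka (22.0 CPM, others 8.1 to 10.0), Plk1 (24.5 CPM, others 10.1 to 10.9), Racgap1 (50.2 CPM, others 23.5 to 26) and Anln (4.6 CPM, others 3.2 to 3.3). KOTP replicate 2 stood low for Nuf2, with 3.2 CPM and 6.8 to 7.3 CPM in the others. In KOTN, replicate 4 stood high for Bub1 (11.6 CPM, others 6.7 to 7.5) and replicate 1 low for Aurkb (41.6 CPM, others 61.2 to 64.2). In HetTP, replicate 3 stood high for Cenpf (47.9 CPM, others 14 to 18.8) and Ect2 (34.8 CPM, others 8.3 to 12.1). In HetTN, replicate 2 stood high for Cenpe (201.6 CPM, others 36.6 to 62.0) and Anln (39.9 CPM, others 3.4 to 4.0).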

How the results depend on the processing

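Among the fold changes recorded under each alternative, none reversed; these were of 20 members in KOTP over HetTP, 17 in KOTN over HetTN, 3 in HetTP over HetTN, 10 in KOTP over KOTN and 3 in the difference of tdTomato effects. The number of members called lower was 16 to 25 in KOTP over HetTP when each library was left out, and 17 to 24 under the other alternatives. In KOTN over HetTN it was 7 to 17 and 11 to 17. In KOTP over KOTN it was 2 to 18 when each library was left out, 17 with voom and 0 in the fit of all 16 libraries, whose spread includes the heterozygous table; the cause of the voom count was not tested. It was 0 in HetTP over HetTN and in the difference of tdTomato effects throughout. With the replicate block the counts were 18, 12, 0, 9 and 0 for KOTP over HetTP, KOTN over HetTN, HetTP over HetTN, KOTP over KOTN and the difference. Over all genes tested, deviations of same-numbered libraries hardly correlated (r from -0.03 to 0.10), so the numbers were not taken to pair them. For the members alone, replicate 1 was lowest in both HetTP and HetTN for 25 of 34 members each. In homozygous cells, replicate 1 was highest in KOTP for 27 members and lowest in KOTN for 23. With the 8 compared libraries alone, 17 members were called in KOTP over HetTP and 12 in KOTN over HetTN. Leaving each library out of those fits, an alternative chosen after seeing the data like the omission of the libraries with Cd3d, gave 11 to 26 and 6 to 17. The share of calls over all genes that were higher in KOTP than in HetTP cells was 49.2%, but 59.6% with upper quartile scaling and 27.7% with library totals, which moved the all-gene median log2 fold change to -0.25. In KOTN over HetTN the share was 53.5%, with 63.5% for upper quartile scaling, 43.1% for library totals and 43.2% for voom. Of 360 fits of the 20 members called in KOTP over HetTP, 334 kept the call. Of 306 fits of 17 members in KOTN over HetTN, 262 left the call as it was, 39 lost it and 5 gained it. Of 170 fits of the 10 called in KOTP over KOTN, 113 did.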
